A study of Mus musculus with 13 samples.

Results

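Activator protein 1 (AP-1) and immediate-early genes are described here as a set of 10: the Fos-family genes Fos, Fosb, Fosl1 and Fosl2, the Jun-family genes Jun, Junb and Jund, the ATF-family gene Atf3, the zinc finger transcription factor Egr1, and Zfp36, whose protein destabilises mRNA. They were taken by symbol from a count table of 25746 genes, where each of the 10 symbols was found, and all 10 passed the filter on low counts that left 16051 genes for testing. The rule uses no measured value, but the members were chosen with earlier results of these data known. These genes are also known to rise when tissue is dissociated into single cells.

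Fos-family, Jun-family and ATF-family proteins pair through leucine zippers, and the paired proteins bind DNA as the transcription factor AP-1. Growth factors, cytokines and stress act through MAP kinases to start transcription of many of these genes within minutes, without new protein synthesis. Genes that respond in this way are called immediate-early, and their mRNAs are short-lived. In the epidermis, AP-1 proteins are known for their part in keratinocyte proliferation, differentiation and inflammation, and mice that lack Jun-family genes in the epidermis have served as a model of psoriasis.

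Bulk RNA came from FACS-sorted interfollicular keratinocytes, which make up the epidermis outside the hair follicles, of C57/BL6 mice. Every mouse carried floxed Il12rb2 alleles (Il12rb2fl/fl), the gene for a chain of the interleukin-12 receptor. Mice that also carried K14Cre/+, a Cre recombinase driven by the keratin 14 promoter of basal keratinocytes, are called Il12rb2-deleted, and mice without it are called floxed controls. The title of the series asks how interleukin-12 acts on type 3 immunity in psoriasis-like inflammation. The groups were Il12rb2-deleted mice after 1 day of topical Aldara, a cream with 5% imiquimod (3 libraries), floxed controls after Aldara for the same time (3 libraries), untreated Il12rb2-deleted mice (4 libraries) and untreated floxed controls (3 libraries). Imiquimod is an agonist of Toll-like receptor 7. A group given cream without imiquimod was not analysed here, so the cream and its compound cannot be told apart, nor was a Cre group without floxed alleles. The labels give no age and do not say whether replicates were separate animals, so p-values measure the spread between these libraries, which may be technical.

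Libraries held 5830034 to 22232478 counts. The targeted gene, Il12rb2, was at 0, 1.07 and 1.64 CPM (counts scaled to a common library size) in the Il12rb2-deleted Aldara libraries and 1.98, 8.14 and 2.68 CPM in the floxed control Aldara libraries. Without treatment it was at 22.7, 8.52, 25.6 and 19.0 CPM in Il12rb2-deleted libraries and 17.1, 78.8 and 52.7 CPM in floxed controls. Neither genotype difference passed the test (adjusted p = 0.982 after Aldara and 1.00 untreated), and the counts do not say which exons the reads came from, so the deletion itself was not checked. Keratinocyte markers were detected in all libraries, with Krt5 between 2765 and 17087 CPM and Krt14 between 6422 and 32629 CPM. Floxed control Aldara replicate 3, Il12rb2-deleted Aldara replicate 1 and untreated floxed control replicate 2 stood apart. They had 24, 18 and 26 genes that were more than 4-fold above every other library, against 0 to 4 such genes in each of the other 10 libraries. The predicted gene Gm10800 took 14.2% of counts in untreated floxed control replicate 2 and 5.21% and 10.3% in untreated Il12rb2-deleted replicates 1 and 2. Members whose call or direction changes without these libraries are given both ways.

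The stretches that precede the transcription start differ in the motifs they hold. The table of RefSeq promoters used here (GRCm38.p6) gave 1 window each for 8 of the 10 genes; those of Egr1 and Fosl1 were not used here. Each window belongs to 1 start, which need not be the outermost: those of Atf3, Fosl2 and Zfp36 lie inside the gene spans of GENCODE M21, and that of Jund ends before its span begins. The 250 bases upstream of that start are shown for Fos, Atf3 and Zfp36, which were lower in all 6 Aldara libraries than in all 7 untreated libraries, and for Jun, the classical partner of Fos. Each is written 5′ to 3′ on the strand of its gene, and capitals mark the motif matches named afterwards.
Fos, chr12:85473640-85473889, plus strand: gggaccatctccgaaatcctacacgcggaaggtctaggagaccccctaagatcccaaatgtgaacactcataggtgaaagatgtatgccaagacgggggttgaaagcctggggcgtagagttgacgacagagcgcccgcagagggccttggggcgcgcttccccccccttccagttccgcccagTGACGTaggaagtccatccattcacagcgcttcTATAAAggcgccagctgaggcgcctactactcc
Jun, chr4:95052223-95052472, minus strand: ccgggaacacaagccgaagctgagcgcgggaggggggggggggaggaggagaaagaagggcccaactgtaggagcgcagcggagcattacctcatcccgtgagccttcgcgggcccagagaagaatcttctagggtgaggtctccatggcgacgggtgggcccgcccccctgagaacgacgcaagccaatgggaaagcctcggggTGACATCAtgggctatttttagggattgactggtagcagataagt
Atf3, chr1:191183334-191183583, minus strand: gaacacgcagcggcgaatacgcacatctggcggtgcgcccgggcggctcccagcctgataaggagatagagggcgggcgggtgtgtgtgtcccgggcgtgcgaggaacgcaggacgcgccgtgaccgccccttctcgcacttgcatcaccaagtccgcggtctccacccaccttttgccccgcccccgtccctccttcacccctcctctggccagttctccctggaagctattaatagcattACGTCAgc
Zfp36, chr7:28379229-28379478, minus strand: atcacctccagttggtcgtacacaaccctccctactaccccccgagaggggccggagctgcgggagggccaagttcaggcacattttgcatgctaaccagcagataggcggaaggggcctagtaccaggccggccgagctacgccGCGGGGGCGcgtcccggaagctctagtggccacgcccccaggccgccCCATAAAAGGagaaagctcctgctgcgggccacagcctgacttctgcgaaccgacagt

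Motifs were searched on both strands of windows of 300 bases that run from 250 bases before to 50 after the start, in these 8 genes and in 32851 RefSeq promoters. The consensus AP-1 site TGANTCA was in 0 of the 8 windows and in 7.81% of all promoters. The cyclic AMP response element TGACGTCA was likewise in 0 of 8, against 1.79% of all. The related letters TGACNTCA, which include TGACGTCA, were found in Jun at bases -45 to -38 (8.83% of all promoters). Its half-site TGACGT was found in Fos at bases -66 to -61 and, on the opposite strand, in Atf3 at -8 to -3 (7.51% of all); these last motifs were added after the sequences had been seen. A CArG box, the binding motif of serum response factor, was in Zfp36 at bases -58 to -49 (1.63% of all). The EGR site GCGNGGGCG was in Fosb, Fosl2 and Zfp36 (5.55% of all). G and C made up 68.3, 64.7 and 63.7% of their windows, against a median of 52.7% over all promoters. The windows without this site ran from 46.7% (Jund) to 65.3% (Junb). The TATA box TATAAA lay at bases -33 to -28 in Fos, and at +1 to +6 in Junb, past the start (13.6% of all). A match gives letters only and says nothing of binding.

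Most of the family was lower after Aldara. Averaged over both genotypes, 7 of the 10 genes fell at an adjusted p under 0.05 in edgeR's quasi-likelihood test: Fos, Fosb, Fosl1, Jun, Junb, Atf3 and Zfp36. Their falls ran from 1.46 (Junb) to 2.52 (Fosl1) on the log2 scale. None rose, and Fosl2, Jund and Egr1 did not pass. Without both Aldara libraries that stood apart, a setting added after the data had been seen, all 10 were called lower. Of the libraries dropped there, floxed control Aldara replicate 3 was above its group mean in all 10 genes, so dropping it lowers each. Untreated floxed control replicate 2, which also stood apart, was kept. With all libraries, 11.9% of all tested genes were called lower in the mean of both genotypes, and 24.9% in either direction. The median log2 difference was -1.53 for the 10 genes and -0.15 for all tested genes. In all, the 10 genes took 0.476, 0.668 and 0.618% of counts in Il12rb2-deleted Aldara libraries and 0.259, 0.409 and 1.01% in floxed control Aldara libraries. They took 1.81, 1.28, 1.85 and 2.01% in untreated Il12rb2-deleted libraries and 0.812, 1.68 and 1.74% in untreated floxed controls. In Il12rb2-deleted mice the Aldara and untreated shares did not overlap, whereas floxed control Aldara replicate 3 lay above untreated floxed control replicate 1. In bulk samples, fewer cells of a type and less RNA per cell cannot be told apart.

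**Figure D1:**
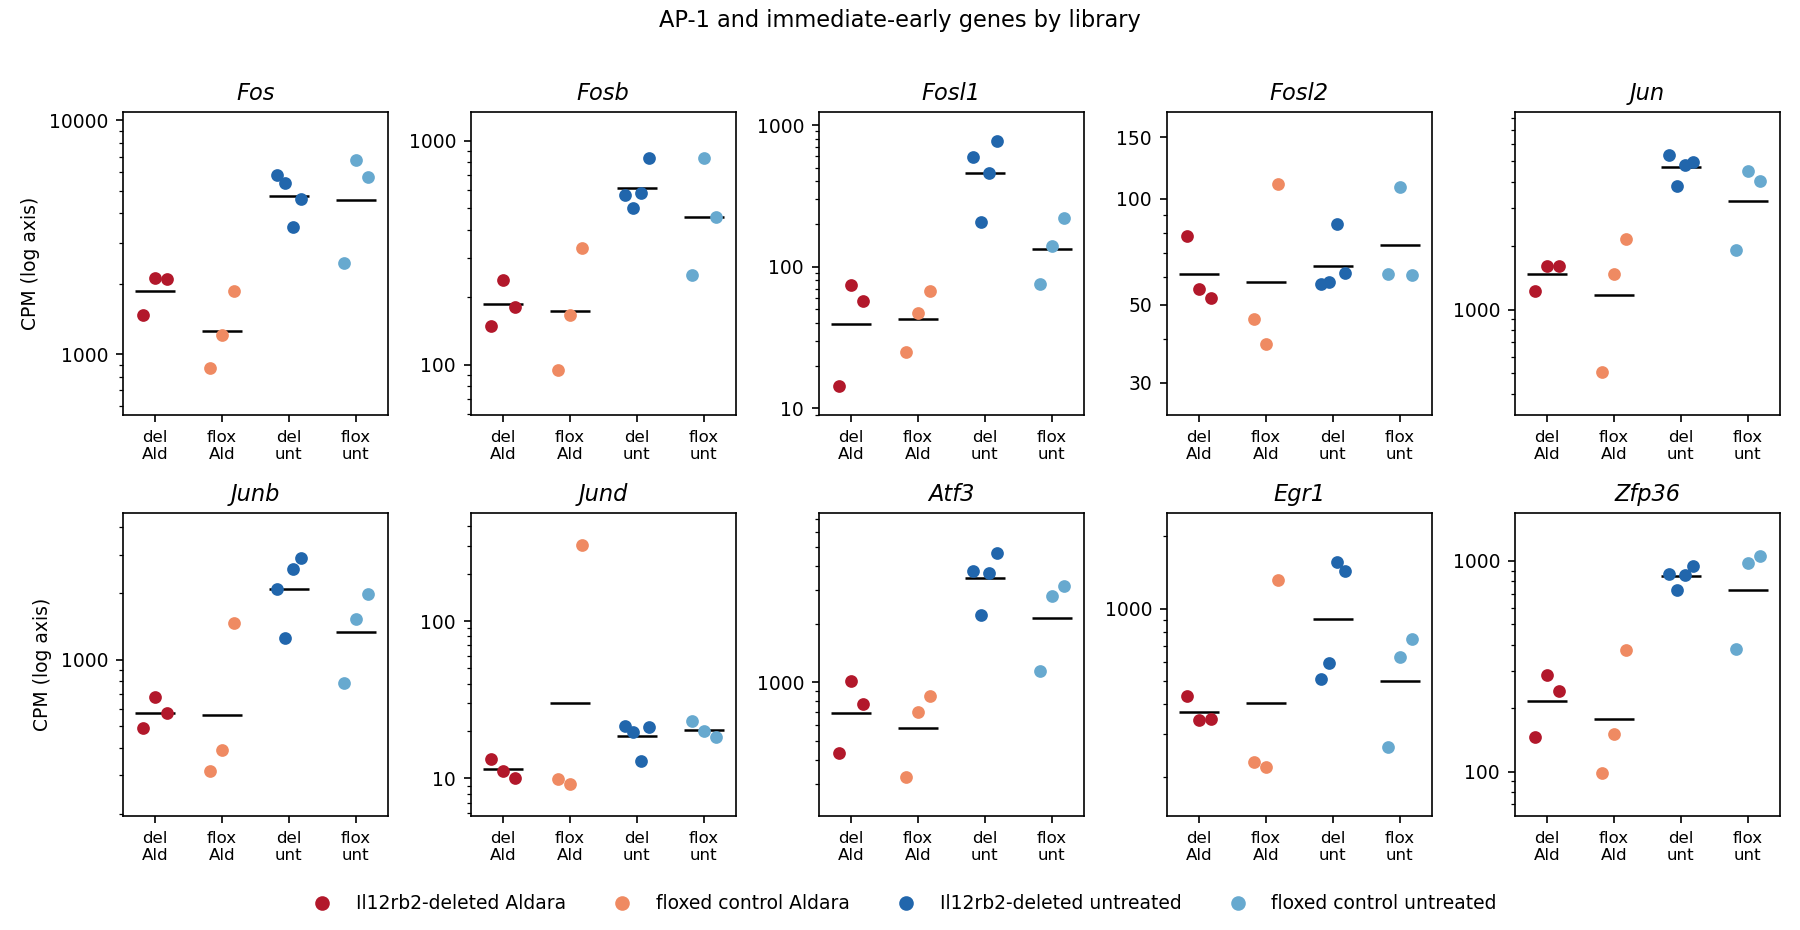
CPM of each of the 10 genes on a log axis, 1 point per library, with groups from left to right as Il12rb2-deleted Aldara (del Ald), floxed control Aldara (flox Ald), Il12rb2-deleted untreated (del unt) and floxed control untreated (flox unt); black lines mark the mean of log2 CPM. Fos, Fosl1, Atf3 and Zfp36 are lower in all 6 Aldara libraries than in all 7 untreated ones, and Jund has a single point at 304 CPM in floxed control Aldara replicate 3.

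Fos, the founding member of its family (chr12:85473890-85477273, GRCm38, plus strand), measured 1465, 2125 and 2108 CPM in Il12rb2-deleted Aldara libraries, against 5869, 5406, 3502 and 4605 CPM in untreated Il12rb2-deleted libraries. In floxed controls it measured 877, 1214 and 1870.1 CPM after Aldara, against 2451, 6782 and 5716 CPM untreated. All Aldara values lay below all untreated values in both genotypes, with untreated floxed control replicate 1 nearest to the Aldara range. The fall was 1.35 in Il12rb2-deleted mice (SE 0.36, adjusted p = 0.0194) and 1.92 in floxed controls (SE 0.38, adjusted p = 0.0104) on the log2 scale. Averaged over genotypes, Fos was 3.10-fold lower after Aldara (adjusted p = 0.000409).

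Fosb encodes a Fos-family protein with shorter and longer forms (chr7:19302696-19310051, minus strand). Its CPM were 149, 240.0 and 181 in Il12rb2-deleted Aldara libraries and 571, 501, 584 and 837 in untreated Il12rb2-deleted libraries, with no overlap. Floxed controls had 95.1, 166 and 331 CPM after Aldara and 251, 838 and 455 CPM untreated, where Aldara replicate 3 exceeded untreated replicate 1. The difference passed in Il12rb2-deleted mice (log2 difference -1.72, SE 0.43, adjusted p = 0.0142) and not in floxed controls (-1.38, SE 0.44, adjusted p = 0.0745). In floxed controls it was -1.98 (adjusted p = 0.0198) without Aldara replicate 3. Averaged over genotypes, Fosb was 2.92-fold lower after Aldara (adjusted p = 0.00189).

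Fosl1 encodes FRA-1, a Fos-family protein without the transactivation domain of Fos (chr19:5447547-5455946, plus strand). After Aldara it had 14.3, 73.7 and 57.6 CPM in Il12rb2-deleted libraries, against 594, 208, 459 and 771 CPM without treatment. In floxed controls the values were 24.9, 46.8 and 67.7 CPM after Aldara and 75.1, 140.1 and 221 CPM untreated. The Aldara and untreated ranges did not overlap in either genotype. The highest values of all were those of untreated Il12rb2-deleted replicates 1, 3 and 4. Replicate 2 of that group (208 CPM) lay below untreated floxed control replicate 3 (221 CPM). With a log2 difference of -3.39 (SE 0.60, adjusted p = 0.00193) in Il12rb2-deleted mice, a 10.4-fold lower level, its change exceeded that of the other 9 genes in size. In floxed controls the difference of -1.65 did not pass (SE 0.57, adjusted p = 0.0989), and without both Aldara libraries that stood apart it was -2.04 (adjusted p = 0.0313). With only Il12rb2-deleted Aldara replicate 1 left out, the floxed control difference was -1.65 and passed (adjusted p = 0.0433). The mean over genotypes was a 5.72-fold lower level (adjusted p = 0.000455).

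Of the exonic length of Fosl1, 57.2% is shared with Ccdc85b on the opposite strand (GENCODE M21). Smart-seq2 reads carry no strand, and the counting rule for shared bases is not given in the sources used here, so reads of the 2 genes cannot be told apart. Ccdc85b, like Fosl1, was lower in all Aldara libraries than in all untreated ones. It had 27.7, 69.6 and 65.2 CPM in Il12rb2-deleted Aldara libraries and 38.9, 59.97 and 63.4 CPM in floxed control Aldara libraries. Untreated, it stood at 494, 185, 384 and 616 CPM in Il12rb2-deleted mice and 79.8, 133 and 183 CPM in floxed controls.

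Fosl2 encodes FRA-2 (chr5:32135801-32157842, plus strand). It had 78.7, 55.4 and 52.4 CPM in Il12rb2-deleted Aldara libraries, against 57.3, 57.8, 85.0 and 61.4 CPM in untreated Il12rb2-deleted libraries. Floxed controls had 45.6, 38.7 and 111 CPM after Aldara and 61.3, 108 and 60.7 CPM untreated. Groups overlapped in both genotypes. Averaged over genotypes, the log2 difference was -0.15, with a 95% interval of -0.69 to 0.38 (adjusted p = 0.707). Without both Aldara libraries that stood apart it was -0.59 (adjusted p = 0.0475).

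Jun, the partner that forms the classical AP-1 with Fos and can also pair with itself (chr4:95049034-95052222, minus strand), measured 1228, 1597 and 1611 CPM in Il12rb2-deleted Aldara libraries and 5313, 3829.6, 4768 and 4967 CPM in untreated ones. Floxed controls had 508, 1464 and 2147 CPM after Aldara, against 1909, 4466 and 4040.3 CPM untreated. The groups were apart in Il12rb2-deleted mice and touched in floxed controls, where Aldara replicate 3 exceeded untreated replicate 1. The log2 difference was -1.67 in Il12rb2-deleted mice (SE 0.41, adjusted p = 0.0127) and -1.34 in floxed controls (SE 0.42, adjusted p = 0.0704), where it was -1.82 (adjusted p = 0.0274) without Aldara replicate 3. Over both genotypes Jun was 2.84-fold lower after Aldara (adjusted p = 0.00164).

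Junb encodes a Jun-family protein that is a weaker activator than Jun on many promoters (chr8:84974484-84978718, minus strand). It had 489.7, 677 and 574 CPM in Il12rb2-deleted Aldara libraries, against 2103, 1252, 2568 and 2891 CPM in untreated ones. In floxed controls, 314, 391 and 1465 CPM were counted after Aldara, against 785, 1529.5 and 1989 CPM untreated. Floxed control Aldara replicate 3 lay inside the untreated range, and the other 5 Aldara libraries lay below all untreated ones. Junb fell by 1.93 on the log2 scale in Il12rb2-deleted mice (SE 0.50, adjusted p = 0.0166), and its value of -0.99 in floxed controls did not pass (SE 0.50, adjusted p = 0.283). Without floxed control Aldara replicate 3, the floxed control value was -2.03 (adjusted p = 0.0131).

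Jund encodes the Jun-family protein found in resting cells of many tissues (chr8:70698949-70700616, plus strand, a single exon). It had 13.3, 11.1 and 10.1 CPM in Il12rb2-deleted Aldara libraries and 21.6, 19.6, 12.8 and 21.3 CPM in untreated Il12rb2-deleted libraries. Floxed controls had 9.90, 9.18 and 304 CPM after Aldara, against 23.1, 20.0 and 18.2 CPM untreated. Floxed control Aldara replicate 3 held 6240 counts of Jund, 13.1-fold above the next library on the CPM scale, and of all tested genes Jund exceeded the other libraries by most there. The fitted difference in floxed controls was 2.40 (SE 0.91, adjusted p = 0.132), and without that library it was -1.10 (adjusted p = 0.110). Jund was called higher in floxed controls with no low-count filter (2.52, adjusted p = 0.0388) and without Aldara replicate 2 (2.94, adjusted p = 0.0496). Averaged over genotypes it was 0.84 (adjusted p = 0.354) with all libraries, and -0.91 (adjusted p = 0.0159) without floxed control Aldara replicate 3. Of the exonic length of Jund, 52.6% is shared with the antisense gene Gm11175, which, unlike Ccdc85b, is not in the count table.

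Other genes that stood more than 4-fold above every other library in floxed control Aldara replicate 3, named after their values were seen, included Fads3 (40.5 CPM, against at most 3.14 CPM elsewhere) and Wfdc18 (169 CPM, against at most 17.3 CPM elsewhere). All 10 family members were above their group mean in this library. What sets it apart was not tested.

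Atf3 encodes a stress-induced ATF-family protein that can repress or activate with its partner (chr1:191170296-191218039, minus strand). Its levels were 432, 1013 and 774 CPM in Il12rb2-deleted Aldara libraries, against 3758, 2231, 3667 and 4682 CPM in untreated ones. In floxed controls they were 326, 703 and 847 CPM after Aldara and 1140.2, 2781 and 3155 CPM untreated. The ranges were apart in both genotypes. Atf3 fell by 2.28 in Il12rb2-deleted mice (SE 0.44, adjusted p = 0.00313) and by 1.91 in floxed controls (SE 0.45, adjusted p = 0.0197) on the log2 scale, and it had the smallest adjusted p of the 10 genes over both genotypes (4.27-fold lower, adjusted p = 0.000251).

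Egr1, a zinc finger factor that serum response factor switches on (chr18:34859823-34864984, plus strand), had 432, 344 and 346 CPM in Il12rb2-deleted Aldara libraries, against 509, 597, 1563 and 1434 CPM in untreated ones. In floxed controls it had 229.5, 219 and 1320.5 CPM after Aldara and 266, 632 and 750.3 CPM untreated. The groups were apart in Il12rb2-deleted mice, while in floxed controls 2 Aldara libraries lay below all untreated ones and replicate 3 lay above them. Neither difference passed: -1.46 in Il12rb2-deleted mice (SE 0.60, adjusted p = 0.120) and 0.10 in floxed controls (SE 0.62, adjusted p = 0.957). With floxed control Aldara replicate 3 left out, the value in Il12rb2-deleted mice was -1.46 (adjusted p = 0.0273), and with only the groups compared in the fit it was -1.48 (adjusted p = 0.0371). Without that library, the floxed control value was -1.29 (adjusted p = 0.151) and the mean over genotypes was -1.38 (adjusted p = 0.00678), against -0.68 (adjusted p = 0.284) with all libraries.

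Zfp36 encodes tristetraprolin, which binds AU-rich elements and shortens the life of cytokine and immediate-early mRNAs (chr7:28376784-28380253, minus strand). It measured 146, 287 and 241 CPM in Il12rb2-deleted Aldara libraries and 865, 725, 855 and 950.1 CPM in untreated ones. Floxed controls had 98.5, 151 and 378 CPM after Aldara and 382, 972 and 1054 CPM untreated, so that Aldara replicate 3 and untreated replicate 1 nearly met. The fall was 1.92 in Il12rb2-deleted mice (SE 0.44, adjusted p = 0.00891) and 1.94 in floxed controls (SE 0.46, adjusted p = 0.0206) on the log2 scale.

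**Figure D2:**
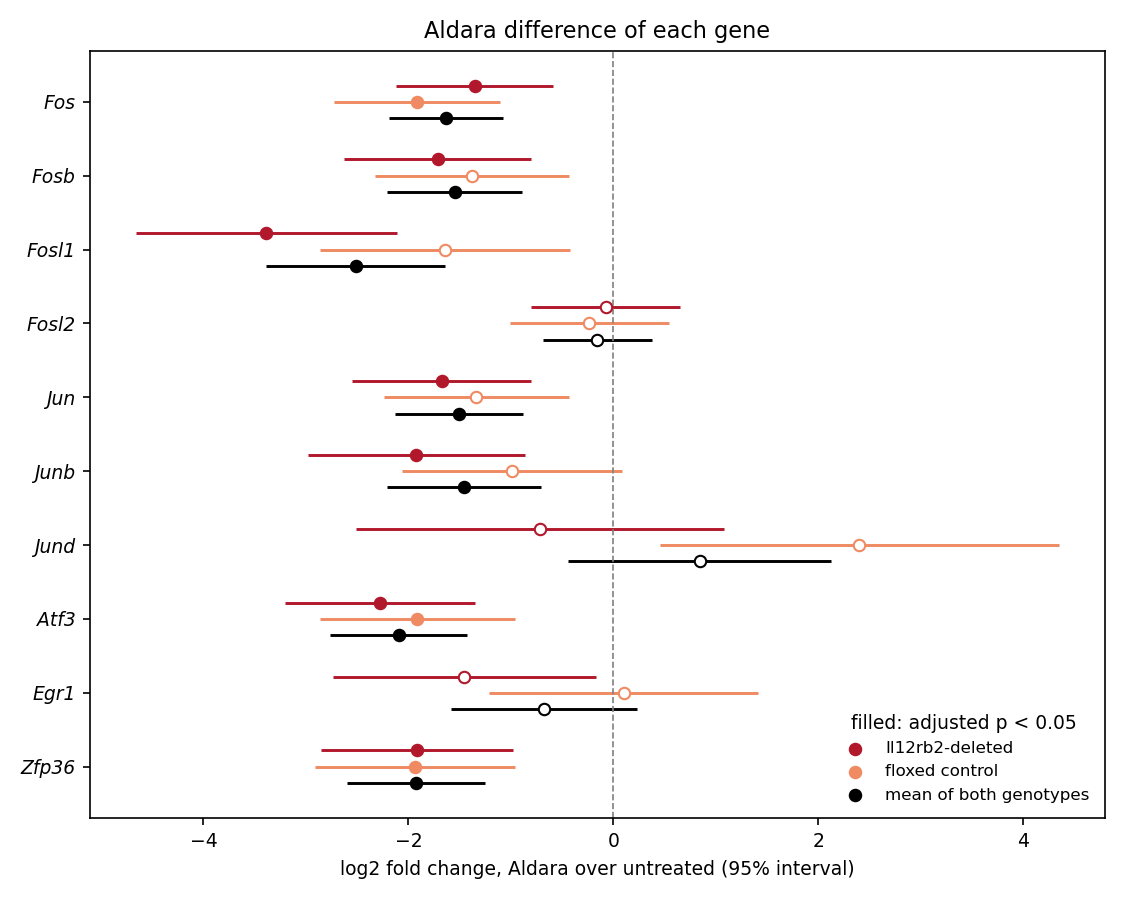
Log2 fold change of Aldara over untreated for each gene (points) with its 95% interval (lines) in Il12rb2-deleted mice, floxed controls and the mean of both; filled points passed at an adjusted p under 0.05. In the mean of both genotypes 7 genes are filled, and the interval of Jund in floxed controls lies above 0, with 2.40 as its centre.

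Within genotypes, 7 of the 10 genes were called lower in Il12rb2-deleted mice, where 7.69% of all tested genes were called lower and 15.5% in either direction. In floxed controls 3 of the 10 were called lower (Fos, Atf3 and Zfp36), where 2.90% of all tested genes were lower and 7.05% were called in either direction. The groups' CPM did not overlap, with Aldara lower, for 8 of 10 genes in Il12rb2-deleted mice (14.8% of all tested genes) and for 4 of 10 in floxed controls (14.7% of all). Over both genotypes, 4 of 10 genes, Fos, Fosl1, Atf3 and Zfp36, were lower in every one of the 6 Aldara libraries than in all 7 untreated libraries, against 5.48% of tested genes. Leaving out each of the 13 libraries in turn gave 7 to 9 called genes for the mean of both genotypes, and the same 7 were called each time. The count in floxed controls was less steady, at 0 without untreated floxed control replicate 2 or without Aldara replicate 1, and at 6 without Aldara replicate 3. It was also 0 without the 3 untreated libraries high in Gm10800, where the mean over genotypes had 7. In that setting the call of Fos in Il12rb2-deleted mice was lost too (-1.13, adjusted p = 0.0983). With only the groups compared in the fit, that of Zfp36 in floxed controls was lost (adjusted p = 0.0615). In Il12rb2-deleted mice, 3 genes (Fosl1, Atf3 and Zfp36) were called without Aldara replicate 1. The calls of those 3 held with each other library left out as well. Without Aldara replicate 1, those of Fos (-1.20, adjusted p = 0.0810) and Fosb (-1.57, adjusted p = 0.0609) missed the threshold. So did those of Jun (-1.56, adjusted p = 0.0531) and Junb (-1.82, adjusted p = 0.0647). The call of Fos in Il12rb2-deleted mice missed the threshold too when Aldara replicate 2 (adjusted p = 0.0518) or untreated replicate 1 (0.0536) was dropped, and that of Junb when Aldara replicate 3 was dropped (0.0544). In floxed controls, the call of Fos was lost without Aldara replicate 1 (adjusted p = 0.0521) or untreated replicate 2 (0.0582). Those of Atf3 and Zfp36 were lost without Aldara replicate 1 or 2 or untreated replicate 2 or 3, with adjusted p from 0.0535 to 0.0914.

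**Figure D3:**
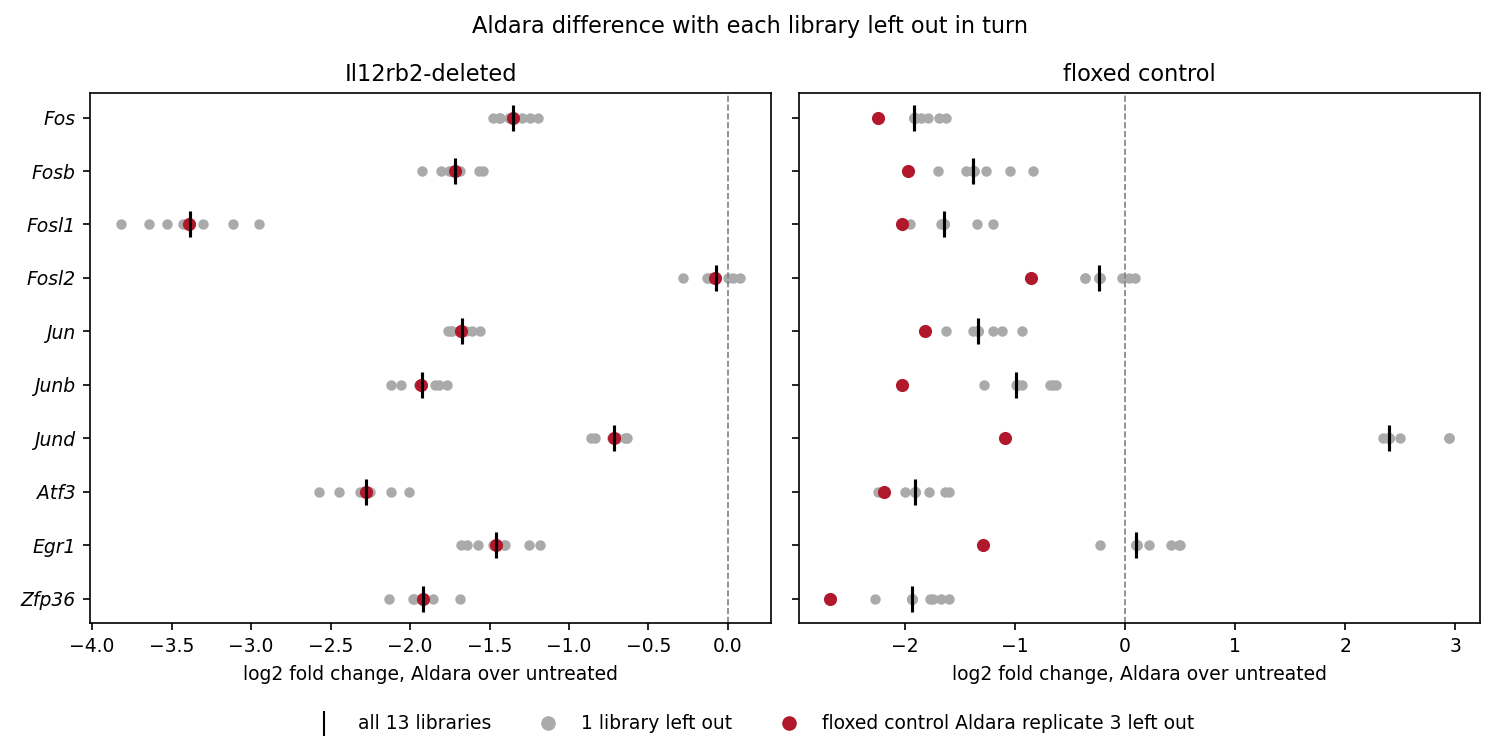
Log2 fold change of Aldara over untreated with all 13 libraries (black bars) and with each library left out in turn (grey points), in Il12rb2-deleted mice (left) and floxed controls (right). Leaving out floxed control Aldara replicate 3 (red) moves Jund to -1.10, Egr1 to -1.29 and Junb to -2.03 in floxed controls.

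The genotypes were compared within each treatment, and none of the 10 genes was called. The test called 0% of all tested genes in either of these contrasts or in the interaction, where the Aldara response of floxed controls was subtracted from that of Il12rb2-deleted mice. The CPM of the groups overlapped for all 10 genes. Over all tested genes, those that did not overlap were higher in Il12rb2-deleted mice for 4.37% after Aldara and 2.77% untreated, and lower for 4.72% after Aldara and 3.26% untreated. At an unadjusted p under 0.05, edgeR had 690 genes after Aldara, 599 untreated and 539 for the interaction. Each count is below a share of 0.05 of the 16051 tested genes, the share that falls there with no true difference. Of these genes, 1, 1 and 2 were members of the family. DESeq2 called 24, 22 and 2 genes at an adjusted p under 0.05, and none of the 10. The member with the smallest unadjusted p among untreated libraries was Fosl1, at 594, 208, 459 and 771 CPM in Il12rb2-deleted mice and 75.1, 140.1 and 221 CPM in floxed controls. Its values overlapped at the lowest Il12rb2-deleted library, and the log2 difference was 1.80 (SE 0.55, 95% interval 0.63 to 2.98, unadjusted p = 0.00511, adjusted p = 1.00). For Jund after Aldara the difference of -3.23 (adjusted p = 0.982) turned to 0.16 without both Aldara libraries that stood apart.

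For the other members the intervals of the genotype difference included 0. After Aldara, that of Fos ran from -0.26 to 1.31, that of Jun from -0.78 to 0.99, that of Atf3 from -0.68 to 1.16 and that of Zfp36 from -0.84 to 1.05. Without treatment, the interval ran from -0.78 to 0.70 for Fos, from -0.39 to 1.28 for Jun, from -0.27 to 1.48 for Atf3 and from -0.80 to 0.96 for Zfp36. The interaction was -1.74 for Fosl1 (95% interval -3.39 to -0.09, unadjusted p = 0.0404, adjusted p = 1.00), a larger fall in Il12rb2-deleted mice that did not pass. For Jund it was -3.12 (95% interval -5.76 to -0.47, unadjusted p = 0.0239), which did not pass after adjustment either. Without both Aldara libraries that stood apart, the interaction of Jund was 0.27.

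Per kilobase of merged exons, Fos had the highest mean level of the family in all 4 groups. In untreated Il12rb2-deleted libraries it averaged 2060.2 ± 441 CPM per kilobase, followed by Atf3 at 1664 ± 470 and Jun at 1480 ± 199 CPM per kilobase (SD, n = 4). The ranges of these 3 overlapped (1489 to 2495, 1036 to 2174 and 1201 to 1666), so their order is not set. Junb followed at 958 ± 309 CPM per kilobase, and its range (544 to 1256) overlapped those of Atf3 and Jun. Next came Fosl1 at 249.9 ± 117, Zfp36 at 245 ± 26.8 and Egr1 at 229 ± 123 CPM per kilobase, which overlapped each other. Fosb had 99.9 ± 23.6 CPM per kilobase, and its range (80.3 to 134) overlapped those of Fosl1 and Egr1. Jund, at 11.3 ± 2.46, and Fosl2, at 6.76 ± 1.36 CPM per kilobase, were at the bottom and overlapped in range. Fosl1 and Jund share 57.2% and 52.6% of their exonic length with genes on the opposite strand. How shared bases were counted is not given, so the places of these genes in the order are uncertain.

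In Il12rb2-deleted Aldara libraries the order began with Fos at 808 ± 160, Jun at 464 ± 68.0, Atf3 at 343 ± 136 and Junb at 252 ± 40.7 CPM per kilobase (SD, n = 3). Fos lay above Jun in range there, while Jun and Atf3 overlapped, as did Atf3 and Junb. Fosl2 had 6.42 ± 1.49 and Jund 6.88 ± 0.995 CPM per kilobase, and they overlapped. Floxed control Aldara libraries averaged 561 ± 215 for Fos, 431 ± 258 for Jun, 314 ± 280 for Junb and 290 ± 125 CPM per kilobase for Atf3 (SD, n = 3), all of which overlapped. Untreated floxed controls averaged 2118.5 ± 959 for Fos, 1095 ± 498 for Atf3 and 1089 ± 430 CPM per kilobase for Jun (SD, n = 3), with overlapping ranges too. The ratio of Fos to Jun per length was 1.62, 1.80 and 1.78 in Il12rb2-deleted Aldara libraries and 2.34, 1.13 and 1.18 in floxed control Aldara libraries. It was 1.5, 1.91, 0.996 and 1.26 in untreated Il12rb2-deleted libraries and 1.74, 2.06 and 1.92 in untreated floxed controls. These ranges overlap between Aldara and untreated libraries in both genotypes.

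Beyond the groups, most members moved together from library to library. Their deviations from the group means over the 13 libraries had correlations with the other members whose median was highest for Zfp36 (0.85) and lowest for Fosl2 (0.51). This is a description, without a background from other genes, over libraries that differ in depth and may share handling. The closest pair was Fosl1 and Atf3 (Pearson r = 0.92), and the least related pair was Fosl1 and Fosl2 (r = 0.04). Floxed control Aldara replicate 3 was above its group mean in all 10 genes and replicate 1 of that group in 0 of 10. Untreated floxed control replicate 1 was above its group mean in 1 gene, Jund, and replicate 2 in 9.

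**Figure D4:**
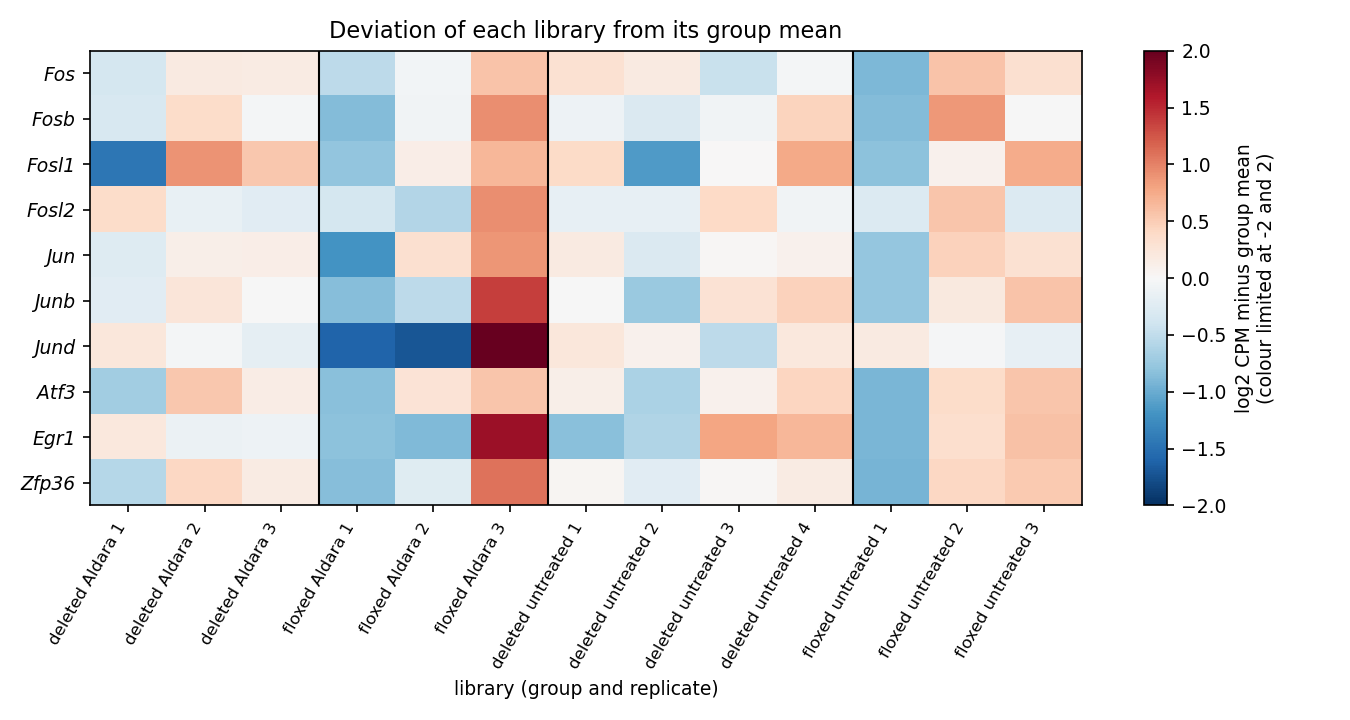
Deviation of log2 CPM from the group mean for each gene (rows) and library (columns), with red above and blue below the mean and the colour limited at -2 and 2. Floxed control Aldara replicate 3 is red in all 10 genes, and untreated floxed control replicate 1 is blue in all except Jund.

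Among 9724 other genes above a floor of 3 in average log2 CPM, the 8 whose deviations were most like the mean profile of the family were Dusp1 (r = 0.98), Edem1 (0.95), Btg1 (0.95), Itgb6 (0.93), Bhlhe40 (0.93), Socs3 (0.93), Epb41l4a (0.92) and Mcph1 (0.92), each over 13 libraries. Dusp1 encodes a MAP kinase phosphatase and is itself immediate-early. Of these 8, Dusp1, Btg1, Bhlhe40, Socs3 and Epb41l4a also fell after Aldara over both genotypes, with log2 differences of -2.11, -0.85, -2.07, -1.98 and -1.18. Edem1 (0.13), Itgb6 (-0.64) and Mcph1 (0.01) did not pass.

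Genes around the family were read from lists, over both genotypes together, where 11.9% of all tested genes were called lower and 24.9% in either direction. Of 21 other immediate-early genes tested, 10 fell and 1 rose, with a median of -0.64. With 1 library left out, 9 to 12 fell and 1 to 2 rose. Csrnp1, Ppp1r15a (GADD34, which reverses the phosphorylation of the translation factor eIF2) and Klf6 had log2 differences of -1.75, -1.79 and -1.66, with adjusted p of 0.000557, 0.000606 and 0.00104. Egr3, a zinc finger relative of Egr1, rose by 1.30 (SE 0.19, adjusted p = 0.000239). It averaged 49.0 ± 13.2 CPM in Il12rb2-deleted Aldara libraries and 26.1 ± 5.56 CPM in untreated ones (SD, n = 3 and 4), and 64.8 ± 14.1 CPM in floxed control Aldara libraries and 20.1 ± 3.34 CPM in untreated ones (SD, n = 3 each). Its groups did not overlap in either genotype.

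Other AP-1 subunits and dimer partners numbered 9 tested, of which 4 fell and 0 rose (median -0.24), and 2 fell without Il12rb2-deleted Aldara replicate 2. Maf, a large Maf-family partner, had a log2 difference of -2.76 (SE 0.33, adjusted p = 5.89e-05), with 1.33 to 4.71 CPM in Il12rb2-deleted Aldara libraries, against 29.7 to 43.7 CPM in untreated ones. In floxed controls Maf had 5.69 to 17.2 CPM after Aldara and 40.8 to 50.4 CPM untreated. Mafk, a small Maf-family partner, and Atf7, an ATF-family relative, had log2 differences of -1.30 and -0.49 and passed as well.

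MAP kinase feedback phosphatases and inhibitors split: of 14 tested, 4 fell and 3 rose, and 2 rose without Il12rb2-deleted Aldara replicate 2. Spry1, an inhibitor of receptor tyrosine kinase signalling, and Dusp1 and Dusp8, which dephosphorylate MAP kinases, had log2 differences of -2.71, -2.11 and -1.78. Dusp4, another MAP kinase phosphatase, rose by 2.30 (SE 0.42, adjusted p = 0.000986). Dusp1 averaged 352 ± 126 CPM in Il12rb2-deleted Aldara libraries and 1645 ± 385 CPM in untreated ones (SD, n = 3 and 4). In floxed controls it averaged 365 ± 289 CPM after Aldara and 1446 ± 728 CPM untreated (SD, n = 3 each).

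Of 21 upstream kinases and promoter factors tested, 3 fell and 2 rose, with a median of -0.23, a share near that of all tested genes. Without untreated floxed control replicate 2, 1 fell and 1 rose. The count that rose was also 1 without Aldara replicates 2 or 3 or untreated replicates 2, 3 or 4 of Il12rb2-deleted mice, or Aldara replicate 3 or untreated replicate 1 of floxed controls. Map3k1, a kinase above JNK, had a log2 difference of -1.22 and Map2k1, the kinase above ERK, one of 0.81. Creb1 and Crem, which bind the cyclic AMP response element, had -0.55 and -1.0. RNA levels give no measure of kinase activity.

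Known AP-1 target genes of keratinocytes moved both ways: of 26 tested, 7 fell and 3 rose. With 1 library left out, 5 to 10 fell and 2 to 3 rose. Krt1, a keratin of differentiating keratinocytes, and Krt5, of basal ones, had log2 differences of -3.03 and -1.37, and the metalloproteinase gene Mmp3 had -3.77. S100a8, an alarmin subunit that neutrophils also express, rose by 4.46 over both genotypes (SE 0.78, adjusted p = 0.000751). It averaged 97.9 ± 47.2 CPM in Il12rb2-deleted Aldara libraries, against 3.53 ± 5.76 CPM in untreated ones (SD, n = 3 and 4). Its average was lower in floxed control Aldara libraries, where 7 neutrophil markers, S100a8 among them, summed to 18.8 to 40.0 CPM. In Il12rb2-deleted Aldara libraries these markers summed to 72.6 to 183 CPM. No tested gene, S100a8 included, was called between genotypes after Aldara. Of the ZFP36 family and mRNAs that ZFP36 is known to destabilise, 2 of 13 rose and 2 fell. The count that rose was 1 with any library left out except Aldara replicates 2 and 3 of Il12rb2-deleted mice and Aldara replicate 3 and untreated replicate 3 of floxed controls. Cxcl1 and Cxcl2, neutrophil chemokines, had 1.34 and 2.32, while Il6 and Ptgs2 had -2.60 and -2.0. Il6 is also counted among the AP-1 targets.

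**Figure D5:**
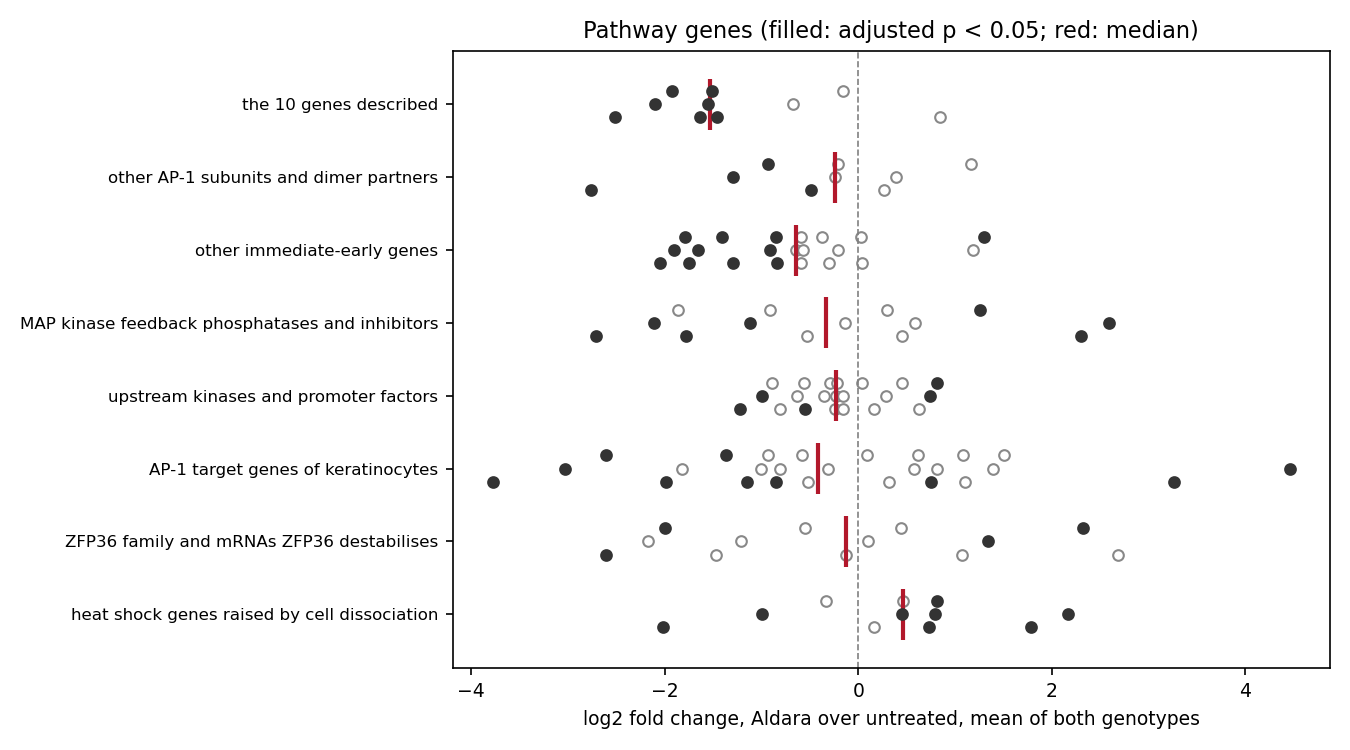
Log2 fold change of Aldara over untreated, mean of both genotypes, for each tested gene (points) of the family and of 7 lists around it; filled points passed at an adjusted p under 0.05 and red bars mark list medians. The median of the 10 genes is -1.53, and the medians of the other lists lie between -0.64 and 0.46.

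Heat shock genes, which dissociation of skin is known to raise together with this family, were read as a list as well. Of 11 tested, 6 rose and 2 fell (median 0.46), and 5 to 6 rose with 1 library left out. Hspd1 and Hspe1, the mitochondrial chaperonin and its partner, rose by 2.17 and 1.79, while Dnajb1, a co-chaperone, and Hspb1, a small heat shock protein, had -2.01 and -0.99 on the log2 scale. The inducible HSP70 genes Hspa1a (-0.33) and Hspa1b (0.17), named after their values were seen, did not pass. The part of dissociation in the fall of the AP-1 genes was not tested.

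Markers of several cell types moved with treatment. The summed CPM of 7 defining keratinocyte markers ran from 11926 to 20486 in Il12rb2-deleted Aldara libraries, against 39505 to 65462 in untreated ones, and from 11985 to 19589 in floxed control Aldara libraries, against 25344 to 44780 in untreated ones. Of these 7 genes, 5 fell, led by Krt10 (-4.15), while Itga6 and Trp63 did not pass. Fibroblast markers summed to 10.6 to 130 CPM in Il12rb2-deleted Aldara libraries and 783 to 1871 CPM in untreated ones, and to 73.6 to 308 CPM in floxed control Aldara libraries and 785 to 937 CPM in untreated ones. Of those 7, 6 fell, and none was at 0 in any whole group. Sebaceous gland markers summed to 4196 to 5339 CPM and 4273 to 7848 CPM in Il12rb2-deleted and floxed control Aldara libraries, against 398 to 2124 CPM and 963 to 2283 CPM in untreated ones, and all 8 rose.

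Endothelial and mural markers summed to 15.2 to 50.9 CPM over the 6 Aldara libraries and 40.7 to 216 CPM over the 7 untreated ones, with 3 of 7 genes falling. T cell markers summed to 9.0 to 16.2 CPM after Aldara and 22.5 to 50.2 CPM untreated, with 2 of 6 tested genes falling, and Cd3d was at 0 in the floxed control Aldara and untreated Il12rb2-deleted groups. Neutrophil markers, which include S100a8 and S100a9, summed to 18.8 to 183 CPM after Aldara and 0.544 to 20.8 CPM untreated. Of the 3 neutrophil markers tested, 2 rose, and Retnlg was at 0 in the Il12rb2-deleted and Mpo in the floxed control Aldara group. Sums of hair follicle (1 of 8 rose, 2 fell), Langerhans cell and macrophage (1 of 9 fell) and melanocyte markers (0 of 7 passed) overlapped between Aldara and untreated libraries, and Cd207 and Krt25 were at 0 in the Il12rb2-deleted Aldara group. The part of these cell types in the fall of the AP-1 genes was not tested.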

How the data were processed

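Interfollicular keratinocytes were sorted from mouse skin and their total RNA was sequenced. Per the labels' protocols, libraries followed Smart-seq2, which keeps no strand and carries no molecular identifiers, with single-end reads of 100 bases. The authors deposited raw counts per gene, whole numbers without normalization. STAR, featureCounts of Subread and GRCm38 were used, per the submitters' processing notes. For their versions, the annotation release and the strand setting, nothing was given in the sources used here.

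Counts were fitted in R 4.3.3 with edgeR 4.0.16: filterByExpr at a minimum count of 10, TMM factors, 1 coefficient per group over 13 libraries, and the quasi-likelihood F test. Adjusted p is by Benjamini-Hochberg over 16051 genes, called under 0.05. SE is the log2 difference divided by the root of F. DESeq2 1.42.0, limma 3.58.1 (voom), other normalization, no filter and left-out libraries were alternatives. Correlations were taken over log2 CPM (prior count 2). Exonic lengths came from GENCODE M21. The number of libraries and a common dispersion of 0.424 limit precision.

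The members and lists were chosen with earlier results of these data known. Named were all 10 members, up to 4 genes per list with the smallest p in the mean Aldara contrast, 8 genes by likeness and the genotype and cell type checks. A gene that the rule names is not reported here.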

Additional observations from a re-analysis of the deposited data

Results flagged for a closer look

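Fosl2 in untreated Il12rb2-deleted replicate 3 stood at 85.0 CPM, away from 57.3, 57.8 and 61.4 CPM in the other 3 libraries of its group. Its gap to the nearest of them, as a share of the group's range, was 0.852, above Dixon's 95% critical value for 4 samples. The 10 genes were examined in this 1 group of 4 libraries, and chance puts about 1 in 20 groups past that value.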

How the results depend on the processing

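The 7 genes called lower after Aldara over both genotypes were called under every alternative run, including each left-out library, with adjusted p up to 0.0220 (Junb). No value called with all libraries changed sign. In floxed controls 5 members were called by DESeq2 and 5 by voom, 4 with no low-count filter, 0 without the 3 untreated libraries high in Gm10800, and 7 without the 2 Aldara libraries that stood apart, a setting added after seeing the data. With 1 library left out the members called ran from 0 to 6 in floxed controls and from 3 to 8 in Il12rb2-deleted mice, against 3 and 7 with all libraries. All genes called ran from 215 to 1451 in floxed controls (1132 with all libraries), from 1650 to 2764 in Il12rb2-deleted mice (2489) and from 0 to 1 for the interaction (0). DESeq2 called 2041 genes in floxed controls, 24 and 22 between genotypes after Aldara and untreated, and 2 for the interaction. No low-count filter gave 1 and 3 genes between genotypes after Aldara and untreated. Without the Gm10800-high libraries, 1466 genes were called in Il12rb2-deleted mice, 270 in floxed controls and 2622 for the mean. The causes were not tested.

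Values that changed sign are log2 differences. For Aldara in floxed controls, Egr1 was -0.29 with voom, -0.24 with the replicate block and -1.31 without the 2 Aldara libraries, where Jund was -1.12 (-0.99 for the mean), and Fosl2 was 0.11 without the Gm10800-high libraries. Between untreated genotypes, Fos was 0.0011 with no filter, 0.061 with voom, 0.12 with the block and 0.034 without the Gm10800-high libraries, where Fosl2 was 0.31. Between genotypes after Aldara, voom gave Fosb 0.095, Fosl1 -0.028 and Junb 0.018, the block gave Fosb 0.026 and Fosl2 0.030, and leaving out the 2 Aldara libraries gave Fosb 0.69, Fosl2 0.37, Junb 0.84, Jund 0.16 and Egr1 0.63. For the interaction, Zfp36 was -0.025 with no filter and -0.27 without the Gm10800-high libraries, where Fosl2 was -0.38. Without the 2 Aldara libraries, it was 0.40 for Fosb, 0.25 for Jun, 0.21 for Junb, 0.27 for Jund and 0.18 for Atf3.

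With 1 library left out, Aldara in floxed controls ranged from -0.86 to 0.093 (Fosl2), -1.10 to 2.94 (Jund) and -1.29 to 0.50 (Egr1), in Il12rb2-deleted mice from -0.28 to 0.078 (Fosl2), and in the mean from -0.47 to 0.0092 (Fosl2) and -0.91 to 1.11 (Jund). Between untreated genotypes it ranged from -0.36 to 0.25 (Fos), -0.046 to 0.82 (Fosb), -0.38 to 0.10 (Fosl2), -0.19 to 0.030 (Jund) and -0.25 to 0.34 (Zfp36). Between genotypes after Aldara it ranged from -0.39 to 0.54 (Fosb), -0.37 to 0.50 (Fosl1), -0.33 to 0.56 (Fosl2), -0.29 to 0.58 (Jun), -0.68 to 0.72 (Junb), -3.78 to 0.26 (Jund), -0.069 to 0.52 (Atf3), -1.06 to 0.73 (Egr1) and -0.24 to 0.85 (Zfp36). For the interaction it ranged from -0.88 to 0.26 (Fosb), -0.17 to 0.78 (Fosl2), -0.74 to 0.14 (Jun), -1.30 to 0.097 (Junb), -3.66 to 0.38 (Jund) and -0.32 to 0.77 (Zfp36).

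The replicate block left the members called at 3 in floxed controls and 7 in Il12rb2-deleted mice and in the mean, and gave 831, 1919 and 3581 genes. Deviations of same-numbered libraries correlated from -0.10 to 0.19 over 18 pairs (median 0.048). Those of differently numbered libraries correlated from -0.46 to 0.37 over 45 pairs (median -0.033). With so few libraries per group these values cannot exclude pairing. The main fit had no block because the labels do not say that the numbers pair libraries.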
